A study of Mus musculus with 18 samples.

Results

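The genes of MHC class I antigen presentation were followed in ED1SQ4 lung cancer cells over all 6 conditions of the RNA-Seq data. The group holds 10 genes, taken by gene symbol from the 55450 rows of the gene table, and each symbol matched 1 row. They are the classical heavy chains *H2-K1* and *H2-D1* and their light chain *B2m*, the peptide transporter subunits *Tap1* and *Tap2*, the loading chaperone *Tapbp*, the immunoproteasome subunits *Psmb8* and *Psmb9*, the transcriptional activator *Nlrc5* and *Cd274*, which encodes PD-L1. MHC class I molecules show peptides from a cell's own proteins to CD8+ T cells. The proteasome cuts the proteins, TAP carries the peptides into the endoplasmic reticulum, tapasin (the product of *Tapbp*) holds the heavy chain and its light chain next to TAP until a peptide is bound, and the complex then moves to the surface. Interferon signaling and NLRC5 are known to raise transcription of most of these genes. PD-L1 does not present antigen, but binds PD-1 on T cells and restrains them, and its gene is also induced by interferon.

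ED1SQ4 is a murine line derived from a lung cancer of a transgenic mouse that overexpressed cyclin E. Cells received vehicle or 0.5 μM CYC065, an inhibitor of CDK2 and CDK9, for 72 hours. They were stained for DNA content with Vybrant DyeCycle Green and sorted into diploid (2N) and polyploid (4N) populations, and cells of each treatment were also sequenced without sorting. All 6 groups therefore came from the same line without a further genetic change, and differed in drug and in sort. DNA content alone does not separate a polyploid cell from a diploid cell in G2 or mitosis. The 3 columns deposited for each group carry 1 library name with different part numbers, and over genes with whole counts they differed by no more than sampling noise (chi-square per degree of freedom 0.992 to 1.019). Each group was thus counted as 1 library, of 54750203 to 62795507 counts in total, and the differences below have no check in a second culture. Intervals of levels are 95% exact Poisson intervals of the summed count and cover counting error only. Over genes with fractional counts, the chi-square per degree of freedom between parts was 4.939 to 8.845. *H2-K1* and *H2-D1* had fractional counts in all 18 columns, so their counting intervals can be too narrow.

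Markers of epithelium were at or near 0, and those of fibroblasts were high. *Epcam* and *Sftpc* had at most 1 count in a library and *Nkx2-1* had 0, while *Col1a1* had 160740 to 315471 counts and *Pdgfra* 19093 to 84845. Of 16 immune markers, 9 had at most 1 count in every library, the pan-leukocyte gene *Ptprc* among them. Only *Cd68* and *Csf1r* reached 30 counts. *Cd68*, a lysosomal glycoprotein gene used to mark macrophages, had 194 to 233 counts in the vehicle libraries and 598, 1389 and 1280 in the unsorted, 2N and 4N CYC065 libraries. Summed, the 16 markers came to 4.76 to 5.73 CPM with vehicle and 12.3 to 26.5 CPM after CYC065, of which *Cd68* alone made up 11.2, 24.6 and 19.3 CPM in unsorted, 2N and 4N cells. *Csf1r*, a macrophage growth factor receptor gene, went the other way, with log2 fold changes of -1.20 (called lower), -0.15 and -0.86. The part of these markers in the class I values was not tested. In these bulk populations, fewer cells with a transcript and less of it per cell cannot be told apart.

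All 10 genes were detected in every library, across a wide range of levels. Counts were scaled to library size (CPM) with TMM factors set over the 6 libraries together, and to compare genes with each other they were divided by exon length in kilobases (kb). *B2m* was the most abundant in every library, at 167 to 243 CPM per kb. Below it came *H2-D1* at 47.0 to 71.5, *Tapbp* at 29.9 to 72.0 and *H2-K1* at 20.7 to 28.4 CPM per kb, with *Tapbp* above *H2-D1* in CYC065 unsorted (72.0 against 54.6) and CYC065 2N cells (52.1 against 51.3) and below it in the other libraries. *Psmb8* (11.8 to 17.4) and *Tap2* (10.1 to 14.7) formed a middle range, and their ranges overlapped. *Tap1* lay at 1.71 to 3.48 CPM per kb. *Psmb9* (0.378 to 1.065), *Cd274* (0.493 to 1.366) and *Nlrc5* (0.151 to 0.351) had the lowest levels, with 74 to 327 counts in a library. Within a gene, the highest library exceeded the lowest by 1.37-fold for *H2-K1* and by up to 2.82-fold for *Psmb9*, and the 4 genes with the widest range were *Psmb9*, *Cd274* (2.77-fold), *Tapbp* (2.41-fold) and *Nlrc5* (2.33-fold).

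**Figure D1:**
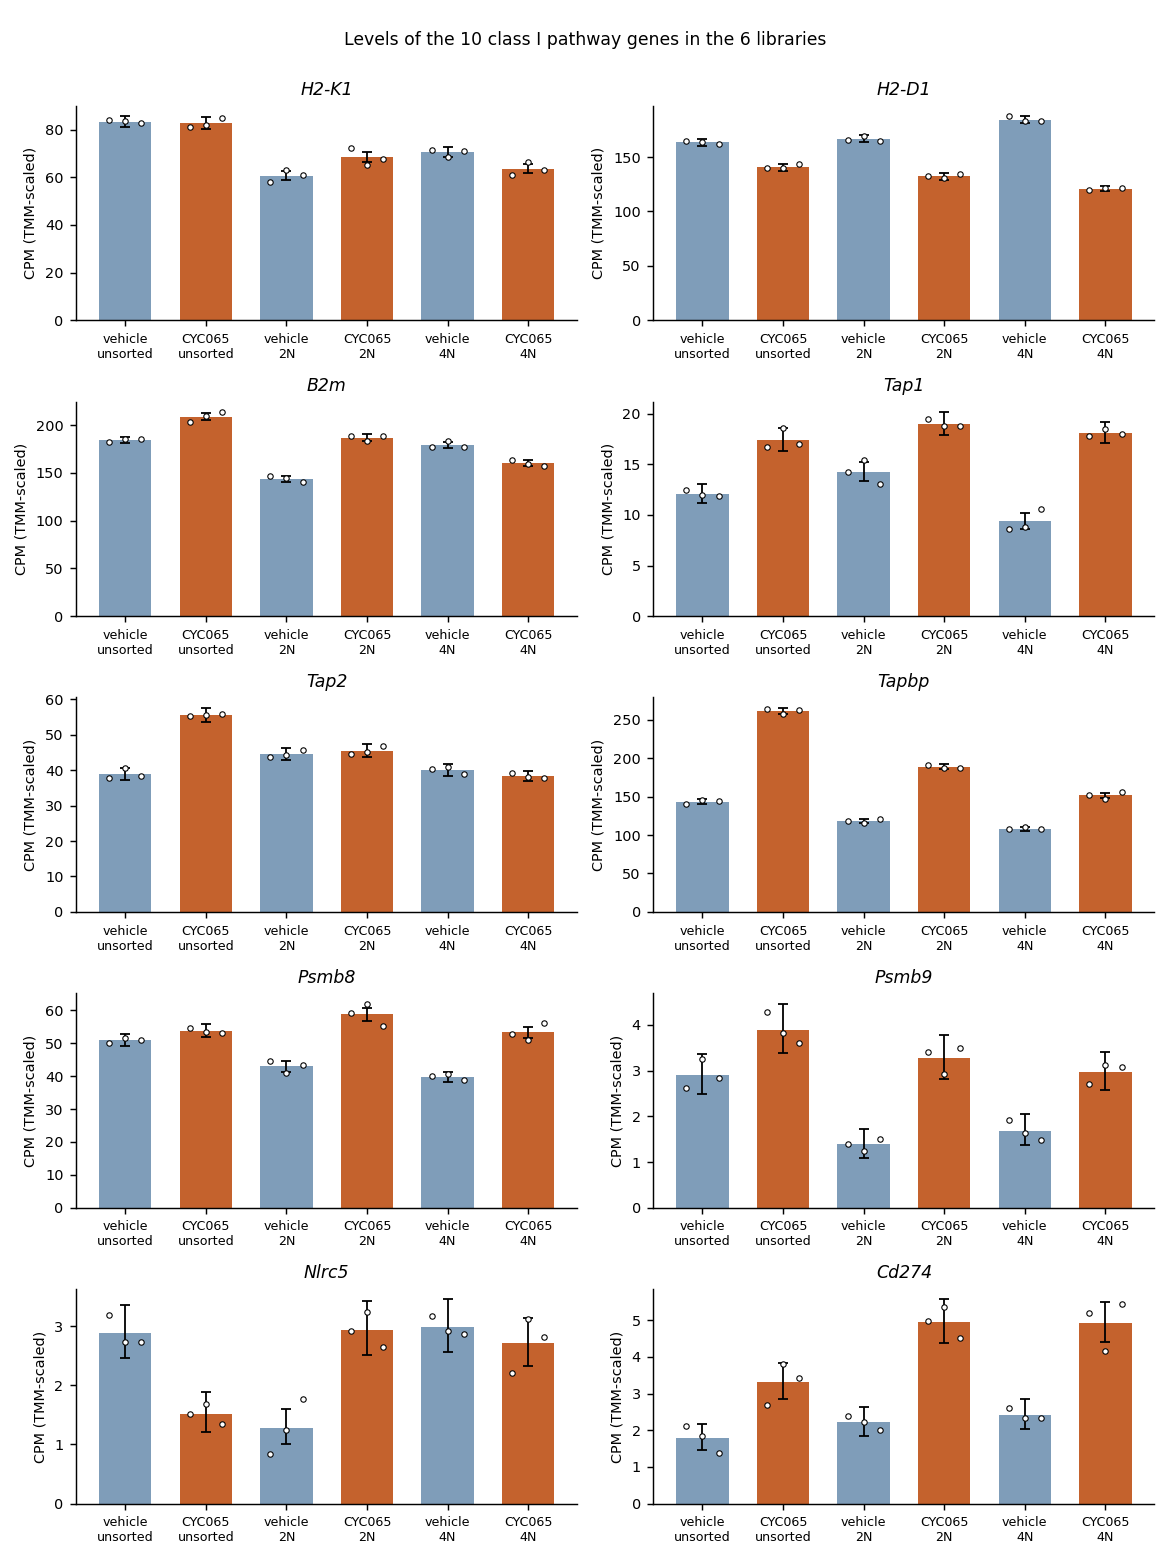
TMM-scaled CPM (y axis, from 0) of each of the 10 genes in the 6 libraries (x axis). Bars are library values with 95% counting intervals, open circles are the 3 parts of each library, blue is vehicle and orange is CYC065. *Cd274*, *Tap1*, *Tapbp*, *Psmb8* and *Psmb9* stand higher in all 3 CYC065 libraries than in the matching vehicle library, *H2-D1* stands lower in all 3, and *Nlrc5* is low in 2 libraries, vehicle 2N and CYC065 unsorted.

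The first question of the design was what CYC065 changed in each population. A gene was called where edgeR's quasi-likelihood test gave a Benjamini-Hochberg adjusted P below 0.05 over the 14761 genes tested and the log2 fold change was beyond 1. In unsorted cells 0 of the 10 genes were called, where 25.2% of all tested genes were (13.1% higher, 12.2% lower). DESeq2 also called 0. In the edgeR fit 8 of 10 had an adjusted P below 0.05 against the noise of the library parts. The share of all genes under that P alone was not computed, so this count does not set the 10 genes apart. The log2 fold changes of the 10 genes, from -0.92 to 0.89, stayed within the threshold. In 2N cells 3 of 10 were called higher, *Psmb9*, *Nlrc5* and *Cd274*, against 17.0% of all genes called higher, 10.8% called lower and 27.9% called in either direction. In 4N cells only *Cd274* was called, against 16.4% called higher, 9.44% called lower and 25.9% either way. In either direction this was 0, 3 and 1 of 10 genes in unsorted, 2N and 4N cells. With the threshold at 0.5 in place of 1, 5, 4 and 4 of 10 were called in unsorted, 2N and 4N cells, against 50.0%, 52.6% and 51.0% of all genes. The median log2 fold change of the 10 genes was 0.30 in unsorted, 0.43 in 2N and 0.18 in 4N cells, and that of all genes was 0.00, 0.03 and 0.07.

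The 10 genes did not move as a block. Relative to vehicle, *Cd274*, *Tapbp*, *Tap1*, *Psmb9* and *Psmb8* had positive log2 fold changes in all 3 populations, and *H2-D1* had a negative one in all 3. *H2-K1*, *B2m*, *Tap2* and *Nlrc5* differed in sign between populations. Scaling by library size alone shifted the median of all genes in the unsorted comparison by -0.12 on the log2 scale and turned the small unsorted value of *Psmb8* negative (-0.04). It turned no other sign named here, whereas DESeq2 gave the near-zero unsorted value of *H2-K1* the opposite sign.

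**Figure D2:**
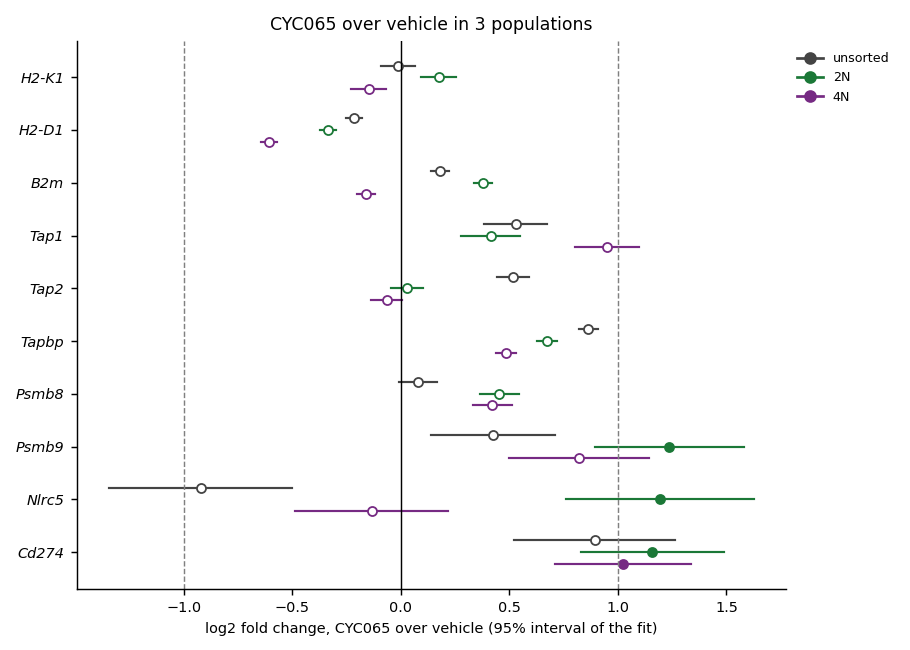
Log2 fold change of CYC065 over vehicle (x axis) for each gene (y axis) in unsorted (grey), 2N (green) and 4N (purple) cells, with 95% intervals from the fit across library parts. Filled circles are called genes and dashed lines mark the call threshold of 1 either way. *H2-D1* lies below 0 in all 3 populations and *Nlrc5* lies on both sides of 0.

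The heavy chains and their light chain changed little, and in different directions. Each heavy chain pairs with its own copy of the light chain. *H2-D1* (chr17:35262730-35267499, plus strand, mm10) stood at 164 CPM in vehicle and 141 in CYC065 unsorted cells, at 167 and 132 in 2N cells, and at 184.5 and 121 in 4N cells. The CYC065 library was the lower one in each pair, without overlap of the counting intervals. The log2 fold changes were -0.22 (SE 0.02), -0.33 (SE 0.02) and -0.61 (SE 0.02), so that the 4N library held 0.656 times the vehicle level. *H2-K1* (chr17:33996017-34000347, minus strand) stood at 83.4 and 82.7 CPM in unsorted, 60.7 and 68.5 in 2N, and 70.4 and 63.5 in 4N cells. Its changes were -0.01 (SE 0.04), 0.17 (SE 0.04) and -0.15 (SE 0.04). *B2m* (chr2:122147686-122153083, plus strand) stood at 185 and 209 CPM in unsorted, 144 and 187 in 2N, and 179 and 160.4 in 4N cells. It was thus higher with CYC065 in unsorted and 2N cells and lower in 4N cells, with changes of 0.18 (SE 0.02), 0.38 (SE 0.02) and -0.16 (SE 0.02).

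Ratios of 2 genes within a library do not depend on the scaling between libraries. Per kb, *H2-D1* came to 29.6% of *B2m* in vehicle unsorted, 38.7% in vehicle 2N and 34.3% in vehicle 4N cells, and to 22.5%, 23.6% and 25.2% in the matching CYC065 libraries. The ratio was lower with CYC065 in every population, by 0.397 (counting SE 0.030) to 0.712 (counting SE 0.031) on the log2 scale. *H2-K1* to *H2-D1* went the other way, from 44.7%, 31.9% and 33.5% with vehicle to 51.5%, 45.4% and 46.1% after CYC065. The classical class I genes share sequence with each other and with the *H2-Q* genes: 8.14% of the 60-base words of *H2-D1* transcripts and 5.89% of those of *H2-K1* occur in another gene, or 28.1% and 24.01% of the 30-base words, and both genes had fractional counts in all 18 columns. *B2m* shared none. The annotated heavy chains are those of C57BL/6J, whereas the study used FVB/N mice as hosts, a strain of another H-2 haplotype, and the part of allele differences in the heavy chain counts was not tested.

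The promoters of these 3 genes are shown because each heavy chain pairs with the *B2m* product and the genes carry a known shared control element, an NF-kB site upstream of the start. Each is the 250 bases before a RefSeq start (GRCm38.p6, the assembly of mm10), 5′ to 3′ on the gene's strand, and capitals mark matches, on either strand, to the core of an interferon-stimulated response element (TTTC and TTTC with 2 free bases between them) or to an NF-kB motif (GGGA and CC with 4 free bases between them), which may overlap themselves.
*B2m*, chr2:122147437-122147686, plus strand: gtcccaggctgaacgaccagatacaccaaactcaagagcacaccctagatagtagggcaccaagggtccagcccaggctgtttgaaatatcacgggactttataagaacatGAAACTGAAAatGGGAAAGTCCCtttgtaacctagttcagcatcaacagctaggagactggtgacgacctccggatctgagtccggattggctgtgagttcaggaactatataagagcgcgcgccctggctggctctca
*H2-K1*, chr17:34000348-34000597, minus strand: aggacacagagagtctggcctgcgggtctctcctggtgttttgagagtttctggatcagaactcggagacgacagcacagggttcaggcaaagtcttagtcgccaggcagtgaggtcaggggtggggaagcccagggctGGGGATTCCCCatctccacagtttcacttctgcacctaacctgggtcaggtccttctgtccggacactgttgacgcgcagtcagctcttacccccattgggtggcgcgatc
*H2-D1*, chr17:35262844-35263093, plus strand: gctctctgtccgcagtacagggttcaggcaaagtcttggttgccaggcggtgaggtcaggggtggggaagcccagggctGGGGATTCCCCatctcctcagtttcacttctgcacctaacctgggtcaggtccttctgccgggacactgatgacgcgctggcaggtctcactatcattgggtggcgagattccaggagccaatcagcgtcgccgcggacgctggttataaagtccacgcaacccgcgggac
The heavy chain promoters hold the same 11 letters, GGGGATTCCCC, starting at position -111 from the start of *H2-K1* and -171 from that of *H2-D1*. *H2-K1* has another RefSeq start, from which they begin at -125. Lined up on these letters without gaps, the windows had the same base at 166 of 190 positions (87.4%). *B2m* has a related NF-kB match and, just before it, a match to the interferon letters, at position -139. Neither heavy chain window matches the interferon letters exactly, but both hold tttcacttct shortly after the letters they share. Looser forms of the interferon element were not searched, so their absence from the heavy chain windows was not shown. Of 32851 promoters of the same length, 17.634% hold the NF-kB letters and 2.977% the interferon letters, so that the NF-kB match alone is common. Of the 8 genes of the group with a promoter window, only these 3 hold the NF-kB letters.

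*Psmb8* and *Psmb9*, of the immunoproteasome, were higher after CYC065. *Psmb8* (LMP7) and *Psmb9* (LMP2) encode catalytic subunits that replace the constitutive *Psmb5* and *Psmb6* products and favor peptides that fit class I grooves. *Psmb8* (chr17:34197721-34201454) stood at 51.0 CPM in vehicle and 53.8 in CYC065 unsorted cells, 43.0 and 58.8 in 2N cells, and 39.8 and 53.3 in 4N cells. The sorted CYC065 libraries exceeded their vehicle partners without overlap, by 0.45 (SE 0.04) and 0.42 (SE 0.04) on the log2 scale, while the unsorted pair differed by 0.08 (SE 0.04). *Psmb9* (chr17:34181987-34187764) had 169 and 208 counts (2.90 and 3.90 CPM) in unsorted, 80 and 185 counts (1.38 and 3.27 CPM) in 2N, and 102 and 197 counts (1.68 and 2.97 CPM) in 4N cells. The increase was 0.43 (SE 0.14), 1.24 (SE 0.17) and 0.82 (SE 0.16), and the 2N change, a 2.36-fold difference with a 95% interval of 1.86 to 2.99, passed the call. Without the first part of each library the 4N change also passed it, at 1.00.

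The constitutive partners went the opposite way, with 0 of 3 called in unsorted, 2N or 4N cells. Of all genes, 25.2%, 27.9% and 25.9% were called there in either direction. *Psmb5*, *Psmb6* and *Psmb7* had log2 fold changes of -0.59, -0.48 and -0.22 in unsorted cells. Their values were -0.53, -0.61 and -0.27 in 2N cells and -0.58, -0.57 and -0.23 in 4N cells. As a ratio within the library, *Psmb8* per kb came to 22.2%, 17.3% and 15.6% of *Psmb5* in vehicle unsorted, 2N and 4N cells and to 35.3%, 34.1% and 31.1% after CYC065. This is an increase of 1.59-fold, 1.97-fold and 2.00-fold. *Psmb9* remained a small part of *Psmb6* throughout, at 0.444% to 1.22% with vehicle and 1.40% to 2.28% after CYC065, an increase of 1.87-fold, 3.62-fold and 2.63-fold. The third immunoproteasome subunit did not follow. *Psmb10* (MECL-1) fell with CYC065 by 1.40 (SE 0.11) in unsorted and 1.64 (SE 0.11) in 4N cells on the log2 scale, both called, and its 2N change was -0.90 (SE 0.10). Its ratio to *Psmb7* went from 16.6%, 14.2% and 12.6% to 7.31%, 9.15% and 4.72%.

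**Figure D3:**
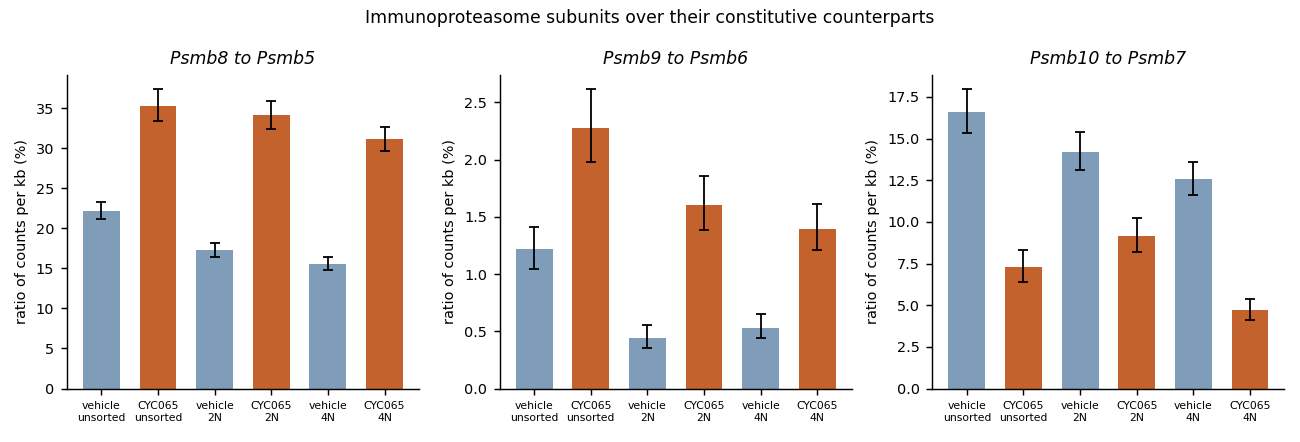
Counts per kb of each immunoproteasome subunit as a percentage of the constitutive subunit it replaces (y axes, from 0) in the 6 libraries (x axes), with 95% counting intervals, blue for vehicle and orange for CYC065. The first and second ratio are higher in every CYC065 library than in its vehicle partner and the third, *Psmb10* to *Psmb7*, is lower in every one.

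The TAP subunits separated in the sorted cells. *Tap1* and *Tap2* encode the paired chains of 1 transporter. *Tap1* (chr17:34187553-34197225) stood at 12.1 and 17.4 CPM in vehicle and CYC065 unsorted cells, 14.3 and 19.0 in 2N, and 9.37 and 18.1 in 4N cells. It was higher with CYC065 in each pair without overlap, by 0.53 (SE 0.07), 0.41 (SE 0.07) and 0.95 (SE 0.07). The 4N value lay just under the call threshold and passed it with library size scaling (1.01) and without the third part of each library (1.04). *Tap2* (chr17:34203527-34216321) stood at 38.8 and 55.6 CPM in unsorted, 44.5 and 45.4 in 2N, and 40.0 and 38.3 in 4N cells. Only the unsorted pair was apart, by 0.52 (SE 0.03), and the 2N and 4N values of 0.03 (SE 0.03) and -0.07 (SE 0.03) had intervals that reached 0. Accordingly the *Tap1* to *Tap2* ratio per kb was the same in unsorted vehicle and CYC065 cells within counting error, at 21.5% and 21.7%. It differed by 1.31-fold in 2N cells, from 22.2% to 28.9%, and by 2.02-fold in 4N cells, from 16.2% to 32.7%.

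*Tapbp* (chr17:33915899-33929292) was higher with CYC065 in each population. It stood at 144 and 261 CPM in vehicle and CYC065 unsorted cells, 118 and 189 in 2N, and 108 and 152 in 4N cells, so that every CYC065 library lay above every vehicle library. The increase was 0.86 (SE 0.02), 0.67 (SE 0.02) and 0.48 (SE 0.02), below the call threshold in each. The other 9 genes of peptide loading, trimming and proteasome activation showed 0 called higher in any population, and 2, 1 and 3 called lower in unsorted, 2N and 4N cells, against 12.2%, 10.8% and 9.44% of all genes called lower and 13.1%, 17.0% and 16.4% higher. The trimming peptidase gene *Erap1* had changes of -0.99, -0.85 and -1.45, and the tapasin relative *Tapbpl* of -1.05, -0.15 and -0.62. *Psme3*, a proteasome activator outside the interferon-inducible pair, had -0.99, -1.29 and -1.29, while of that pair *Psme1* had -0.35, 0.11 and -0.03 and *Psme2* -0.37, 0.38 and 0.37 (25.8% of the 60-base words of *Psme2* occur in another gene). The chaperone genes *Canx*, *Pdia3* and *Calr* had -0.36 to 0.36 in the sorted cells. The median of the 9 genes was -0.37, -0.03 and -0.36, and library size scaling raised the called-lower count in unsorted cells from 2 to 4.

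*Psmb9* and *Tap1* lie head to head and share 1 promoter region, which is shown because the data give both transcripts. Their RefSeq starts are 226 bases apart on opposite strands. The window before *Tap1* is:
*Tap1*, chr17:34187306-34187555, plus strand: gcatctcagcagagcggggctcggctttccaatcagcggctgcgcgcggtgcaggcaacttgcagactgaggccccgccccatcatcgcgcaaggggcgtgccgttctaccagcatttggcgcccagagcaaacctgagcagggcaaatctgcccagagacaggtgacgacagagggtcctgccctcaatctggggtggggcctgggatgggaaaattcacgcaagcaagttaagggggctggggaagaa
It has no match to the interferon or NF-kB letters above or to a gamma-activated sequence (TTC and GAA with 3 free bases between them). The latter is held by 7.02% of all promoters and, in this group, only by that of *Psmb8*, at position -97. Looser forms of these elements were not searched, so their absence from the *Tap1* window was not shown. The promoter table held 8 of the 10 genes, without *Tap2* and *Nlrc5*. Despite the shared region, the ratio of *Tap1* to *Psmb9* per kb was not fixed: it was 2.79 and 2.99 in vehicle and CYC065 unsorted cells, 6.90 and 3.89 in 2N cells, and 3.73 and 4.08 in 4N cells. The vehicle 2N library stood apart, where *Psmb9* was at its lowest. The annotated exons of the genes overlap by 212 bases on opposite strands, and whether the counting used strand is not given in the sources used here.

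*Nlrc5* (chr8:94434356-94527272, plus strand), the activator of class I promoters, had 2 levels. Vehicle unsorted, vehicle 4N, CYC065 2N and CYC065 4N cells held 168, 181, 166 and 180 counts, or 2.88, 2.98, 2.93 and 2.71 CPM, and their counting intervals overlapped. Vehicle 2N and CYC065 unsorted cells held 74 and 81 counts, or 1.28 and 1.52 CPM, with intervals of 1.00 to 1.61 and 1.21 to 1.89 that did not reach the other 4. The change with CYC065 was therefore -0.92 (SE 0.20) in unsorted, 1.19 (SE 0.21) in 2N and -0.14 (SE 0.17) in 4N cells. The 2N change passed the call. The 3 parts of the vehicle 2N library had 16, 24 and 34 counts, and without the first part of each library the 2N change was 0.98 and no longer called. In 2N cells, where *Nlrc5* was higher, 9 of the 10 genes, itself included, had values above 0, against 51.6% of all genes. In unsorted cells, where it was lower, 7 of the 10 did, against 50.2%. In 4N cells, where its value was -0.14, 5 of the 10 did, against 53.4%. The part of *Nlrc5* in these values was not tested.

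*Cd274* (chr19:29367455-29388095, plus strand) was higher with CYC065 in each population. It had 104 and 177 counts (1.78 and 3.32 CPM) in vehicle and CYC065 unsorted cells, 128 and 280 counts (2.21 and 4.95 CPM) in 2N, and 147 and 327 counts (2.42 and 4.93 CPM) in 4N cells. All 3 CYC065 libraries lay above all 3 vehicle libraries, and the nearest counting intervals, those of CYC065 unsorted and vehicle 4N cells, met at 2.85 CPM. The increase was 0.89 (SE 0.18), 1.16 (SE 0.16) and 1.02 (SE 0.15), or 1.86-fold, 2.23-fold and 2.03-fold. The 4N value sat at the call threshold: it ranged from 0.90 to 1.09 over the alternatives and was not called by DESeq2 (0.99). In unsorted cells it passed without the first part of each library, at 1.17, and in 4N cells it was lost without the third, at 0.90. The other PD-1 ligand gene, *Pdcd1lg2*, and the CD28 ligand gene *Cd86* had 0 counts in every library, where 3 counts correspond to 0.0452 to 0.0562 CPM.

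Of the 16 other genes for ligands read by T and NK cells or for partners of PD-L1, 11 were tested. Called higher were 2, 2 and 1 of them in unsorted, 2N and 4N cells, and called lower 0, 1 and 1, beside 13.1%, 17.0% and 16.4% of all genes called higher and 12.2%, 10.8% and 9.44% lower. *Cd276* (B7-H3) had 0.52, 1.21 and 1.176 and *Lgals9* (galectin-9) 0.37, 1.06 and 0.74. *Cd47*, which inhibits phagocytosis, had 1.03, 0.77 and 0.73, and its unsorted call was lost with library size scaling (0.91). *Ulbp1*, a ligand of the activating NK receptor NKG2D, fell with CYC065 in 2N and 4N cells by 1.64 and 1.45, with -0.83 in unsorted cells. Another NKG2D ligand gene, *H60b*, had 1.26 (called), 0.64 and 0.61. *Raet1d*, also of this kind, had -0.57, -0.82 and -0.05. After CYC065 it was called higher in 4N than in 2N cells (1.16, SE 0.32), on 100 against 38 counts. Of the 60-base words of its transcripts, 50.7% occur in another gene, *Raet1e*, so that the values of *Raet1d* are uncertain.

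The second question was how 4N cells differed from 2N cells within a treatment. With vehicle 1 of the 10 genes was called, *Nlrc5*, against 2.80% of all genes called in either direction. It was 2.32-fold higher in 4N cells (log2 1.22, SE 0.21). This comparison and the 2N treatment comparison use the same vehicle 2N library, and without the first part of each library the value was 0.94 and not called. *Tap1* was lower in vehicle 4N than in 2N cells (-0.61, SE 0.07), and *B2m* (0.32, SE 0.02), *H2-K1* (0.22, SE 0.04) and *H2-D1* (0.14, SE 0.02) were higher, all under the threshold. At a threshold of 0.5, *Tap1* joined *Nlrc5*, 2 of 10 against 7.51% of all genes.

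After CYC065, 0 of the 10 were called between 4N and 2N cells, against 3.31% of all genes, and DESeq2 also called 0. All 10 point estimates were below 0, from -0.32 for *Tapbp* (SE 0.02) to -0.01 for *Cd274* (SE 0.13), with a median of -0.13 where the median of all genes was 0.00. Of all genes, 50.3% were above 0. The 10 estimates come from the same pair of libraries and the same scaling, and are not independent of each other. A threshold of 0.5 was passed by 0 of the 10, against 8.98% of all genes. An adjusted P below 0.05 in the edgeR fit was reached by 6 of them, and the share of all genes under that P alone was not computed. The remaining *Tap1*, *Psmb9*, *Nlrc5* and *Cd274* had intervals that included 0, and *Cd274* turned positive (0.03) with library size scaling. For *Cd274* the 95% interval of the 4N to 2N fold was 0.823 to 1.21, so a difference between the CYC065 populations beyond these bounds was not seen at this depth.

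The difference between the 4N to 2N changes of the treatments was tested as an interaction. It was called for 1 of 10 genes, *Nlrc5* (-1.33, SE 0.27), against 3.79% of all genes, and at a threshold of 0.5 for 3, against 9.75% of all genes. *B2m* (-0.54, SE 0.03), *H2-K1* (-0.32, SE 0.06) and *H2-D1* (-0.27, SE 0.03) had smaller values of the same sign: each was higher in 4N than in 2N cells with vehicle and lower after CYC065. *Tap1* had the opposite sign (0.54, SE 0.10), being lower in 4N cells with vehicle and within error after CYC065.

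**Figure D4:**
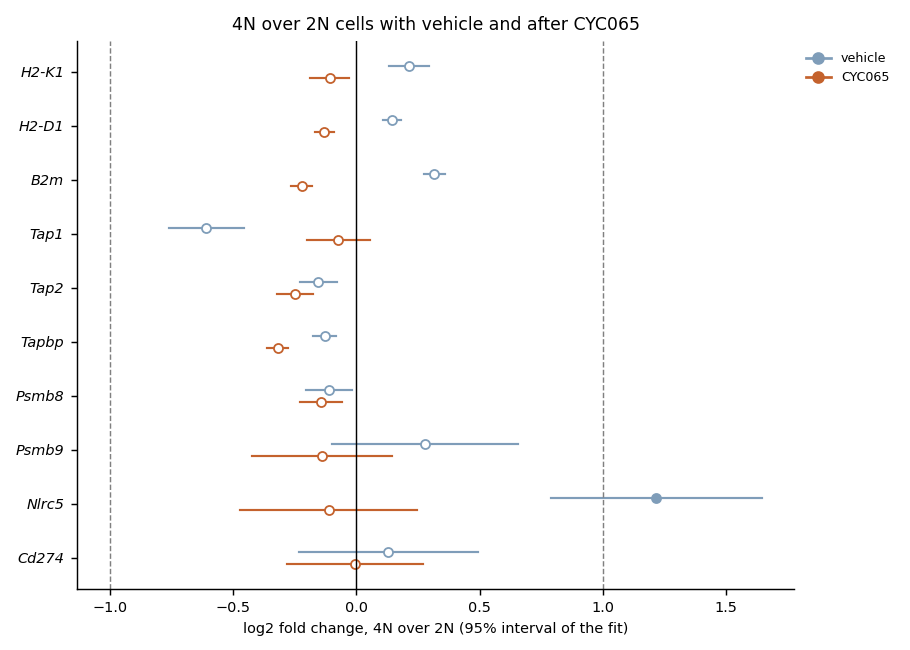
Log2 fold change of 4N over 2N cells (x axis) for each gene (y axis) with vehicle (blue) and after CYC065 (orange), with 95% intervals from the fit across library parts. Filled circles are called genes and dashed lines mark 1 either way. After CYC065 all 10 circles lie at or left of 0, and with vehicle *Nlrc5* alone passes the threshold.

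The unsorted libraries were set against the sorted libraries of the same treatment. With vehicle, the unsorted level lay between the 2N and 4N levels for 2 of 10 genes, *Tap1* and *Nlrc5*, and after CYC065 for 1, *Psmb8*. Over all tested genes the share was 15.4% with vehicle and 18.4% after CYC065. *Psmb9* in vehicle unsorted cells exceeded the nearer sorted level 1.73-fold, and *Tapbp* after CYC065 exceeded it 1.38-fold. *Nlrc5* after CYC065 stood at 0.559 times the nearer sorted level and *Cd274* at 0.673 times. The change with CYC065 in unsorted cells was set against that in sorted cells by a test chosen after these values were seen. Against 2N cells the difference was called for 1 of 10 genes, *Nlrc5* (-2.12, SE 0.29), where 8.98% of all genes were called. Against 4N cells it was called for 0 of 10, where 9.50% were. In each of these comparisons 8 of 10 had an adjusted P below 0.05 in the edgeR fit, without regard to size. The share of all genes under that P alone was not computed. The handling of unsorted and sorted cells cannot be told apart from the sort itself.

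Among the 17 other class I and class I-like genes, 10 were tested, and the called ones were mainly class I-like. Called higher were 2, 4 and 3 of the 10 in unsorted, 2N and 4N cells, and called lower 0 in each. Of all genes, 13.1%, 17.0% and 16.4% were called higher and 12.2%, 10.8% and 9.44% lower. *Fcgrt*, the neonatal Fc receptor, had changes of 2.79, 2.49 and 2.16 in unsorted, 2N and 4N cells, and *Mr1*, which presents vitamin B metabolites to MAIT cells, 1.63, 2.36 and 1.54. Both were called higher in all 3 populations and both pair with β2-microglobulin. *Hfe*, a regulator of iron uptake that does so too, had -0.57, 1.17 and 1.98 with at most 107 counts. The nonclassical *H2-Q4* had -0.69, -0.64 and -0.68, and *H2-T10*, *H2-T22* and *H2-T23* had -0.31 to 0.41. *H2-K2*, a pseudogene, was called in 2N cells (1.82) on 11 against 39 counts. Shared 60-base words reached 27.4% for *H2-T22*, so that values among these genes are uncertain.

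The known inputs to these promoters were read from 29 genes of interferon, JAK-STAT, IRF and NF-kB signaling and the RFX, CREB and NF-Y factors. Called higher were 3, 7 and 5 of them in unsorted, 2N and 4N cells, and called lower 0, 1 and 1, where 13.1%, 17.0% and 16.4% of all genes were called higher and 12.2%, 10.8% and 9.44% lower. The list medians were -0.01, 0.25 and 0.06. *Irf7*, itself an interferon-induced gene, had changes of 1.19, 2.78 and 3.33, the largest of the list in 2N and 4N cells, from 31, 23 and 15 counts to 65, 157 and 169. *Stat2* had 0.68, 1.45 and 1.33, *Stat3* 1.27, 1.43 and 1.39, and the interferon receptor chain *Ifnar2* 1.47, 1.23 and 1.14. *Irf9*, which binds DNA together with STAT2, had 0.69, 1.19 and 0.78, and *Socs3*, a feedback inhibitor, 0.55, 1.40 and 1.53. *Irf1*, a factor classically tied to class I induction by interferon gamma, had 0.55, 0.80 and 0.65 and was not called. The NF-kB gene *Relb* fell in 2N and 4N cells by 1.34 and 1.37. *Rfx5*, a subunit of the RFX complex that NLRC5 works with, had -0.11 and 0.06 in the sorted cells. Of 8 interferon genes, 7 had 0 counts in all 6 libraries and *Ifne* had at most 10.

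**Figure D5:**
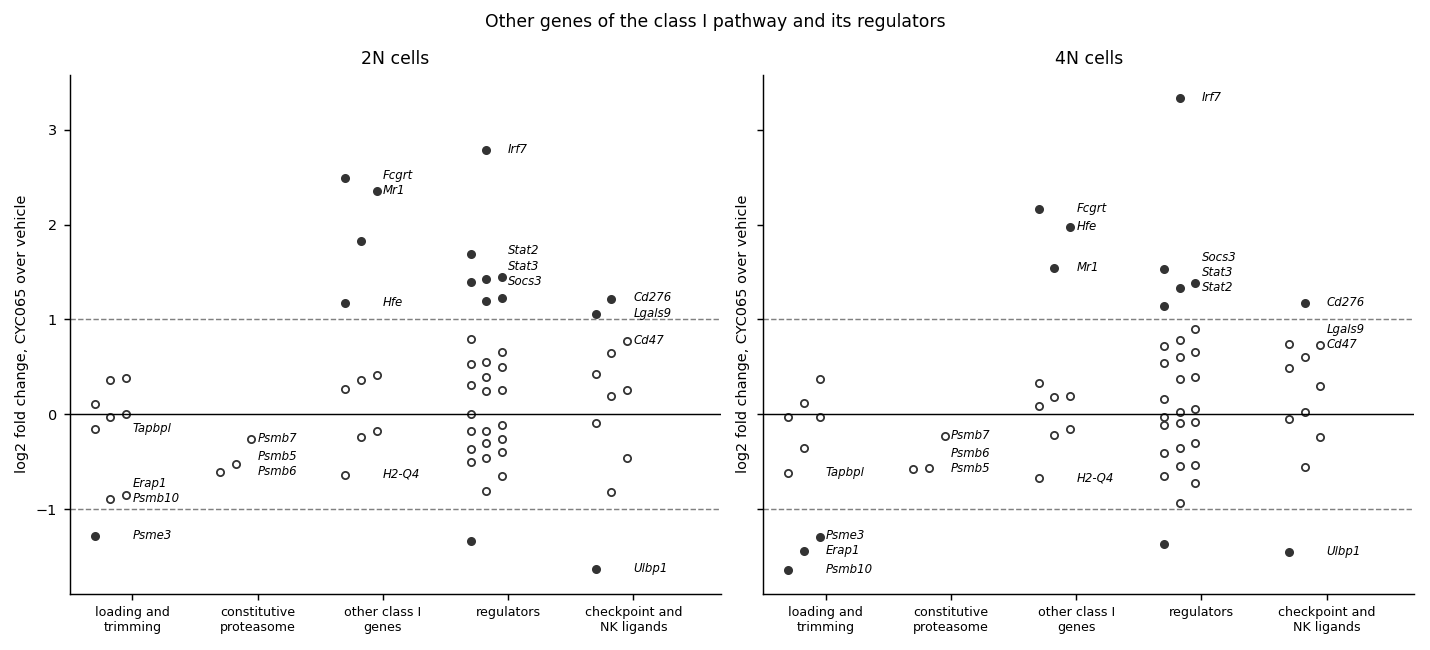
Log2 fold change of CYC065 over vehicle (y axes) in 2N and 4N cells for the tested genes of 5 related lists (x axes), each circle 1 gene, filled where called, with dashed lines at 1 either way. *Irf7* and *Fcgrt* stand highest in both panels, followed by *Mr1* in 2N and *Hfe* in 4N cells, and the loading and trimming list has called genes only below 0.

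The 5 genes outside these lists whose pattern over the 6 libraries was nearest to the median pattern of the 10 genes were *Trim25*, *Parp10*, *Fam172a*, *Etfa* and *Kifap3*. Nearness was the Euclidean distance of centered log2 CPM over the 6 libraries, at most 0.138 for the 5, among 10747 candidates. The median pattern itself was lowest in vehicle 2N (-0.26) and vehicle 4N (-0.20) and highest in CYC065 2N (0.27) and CYC065 unsorted (0.23), in log2 units around each gene's mean.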

How the data were processed

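RNA-Seq of ED1SQ4 cells was analyzed from 1 table of 18 columns, 3 for each of 6 conditions. The deposited values are expected counts per gene, which the authors estimated from trimmed, aligned reads and neither normalized nor filtered. The submitters' processing notes name bcl2fastq 2.17, cutadapt 1.18, STAR 2.7.0f, RSEM 1.3.1 and mm10, and the methods name GENCODE M21. All 55450 gene identifiers matched that annotation. RSEM shares out reads that match several genes, so 9.66% of genes hold fractional counts. Library preparation was from ribosome-depleted total RNA.

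Here counts were rounded and fitted over all 18 columns with edgeR 4.0.16 in R 4.3.3 (quasi-likelihood test, 1 TMM scaling, prior count 0.125), after leaving out genes under 30 counts in every library. P values were Benjamini-Hochberg adjusted over 14761 genes, with a call at 0.05 and a log2 change over 1 either way. The columns are parts of 1 library, so SEs and P values compare libraries and leave out the spread between cultures. The common biological coefficient of variation between parts was 0.0288. On simulated counts of these 14761 genes for the 2N treatment comparison, 200 of 200 changed genes were recovered with 0 false calls, drawn from means of at least 100 or at least 30 counts. The simulated counts held counting noise only, and the changes lay well beyond the threshold. The recovery thus does not bear on genes near the threshold or on the spread between cultures. The genes and lists were chosen with earlier results of these data known. Every member was named; of the other lists, up to 4 genes with the largest mean change in 2N and 4N cells and at least 100 counts in a library were named, plus genes a sentence needed. Differences between the unsorted and sorted CYC065 changes, ratios within libraries and the counts of the other lists under other scalings were added after values were seen, and the self-test minimum and the length of the transcript words compared between genes were changed then. Alternatives were 15 settings, with DESeq2 1.42.0, scaling, filters, thresholds and left-out columns among them. Sequences are from RefSeq (GRCm38.p6). The authors' comparisons, qPCR and imaging were not used.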

Additional observations from a re-analysis of the deposited data

Results flagged for a closer look

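Both flagged values belong to *Nlrc5* and are differences between 2 changes, each tested in the edgeR fit across library parts. The change from 2N to 4N cells differed between treatments: 4N cells had 2.32 times the 2N level with vehicle and 0.925 times after CYC065, a difference of -1.33 on the log2 scale (SE 0.27, adjusted P = 0.0002796 over all genes). Without the first part of each library it was -0.93. The change with CYC065 differed between unsorted and 2N cells, at -0.92 and 1.19, a difference of -2.12 (SE 0.29, adjusted P = 7.915e-07), where 8.98% of all genes were called. Against 4N cells the difference was -0.79 (SE 0.27) and not called. Both rest on the low counts of the vehicle 2N library (74), and the second also on the CYC065 unsorted library (81), with 1 library per group and no second culture.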

How the results depend on the processing

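The 10 genes in 6 comparisons were recomputed under each of 15 alternatives: 851 of these recomputed values kept their direction and side of the threshold, 18 came to pass it, 18 no longer passed it and 13 changed sign. The count of called genes in unsorted cells (0) was 1 with library size scaling, 5 at a threshold of 0.5 and 0 to 1 when 1 column per condition was left out. In 2N cells (3) it was 0 when the 95% interval had to lie beyond 1, and 2 to 3 with a column left out. In 4N cells (1) it was 0 with DESeq2, DESeq2 size factors, an assumed coefficient of variation of 0.2, sorted and unsorted libraries fitted apart, no filter, a prior count of 2 or the interval rule, 2 with library size scaling, 4 at 0.5, and 1 to 2 with a column left out. For 4N versus 2N with vehicle (1) it was 0 with the assumed 0.2 or the interval rule, 2 at 0.5, and 0 to 1 with a column left out, and for the interaction (1) it was 0, 0, 3 and 0 to 1 under the same settings. Changes of sign were in values near 0: *H2-K1* unsorted 0.019 (DESeq2), 0.019 (its size factors), 0.020 (at least 100 counts) and -0.047 to 0.016 with a column left out, *Psmb8* unsorted -0.039 (library size), *Tap2* 2N -0.007 (fitted apart) and -0.019 (no filter), *Nlrc5* 4N -0.279 to 0.045 with a column left out, *Cd274* 4N versus 2N after CYC065 0.026 (library size), 0.007 (no filter) and -0.153 to 0.157 with a column left out, *Nlrc5* there -0.214 to 0.009, and the *Psmb8* interaction -0.150 to 0.079. The cause of these shifts was not tested, beyond the fewer columns or altered threshold that some settings use. Column numbers did not pair the conditions (correlations of same-numbered deviations -0.044 to 0.027), and the replicate block changed no call: 0, 3, 1, 0, 1 and 1 genes in the order unsorted, 2N, 4N, 4N versus 2N after CYC065, the same with vehicle, and the interaction. Depth limits *Psmb9*, *Nlrc5* and *Cd274* most, with 74 to 327 counts a library, and culture-to-culture spread has no measure here.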

Other observations

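The MHC class II pathway, which shows peptides from outside the cell to CD4+ T cells, was read for comparison. Its antigen-presenting chains *H2-Aa*, *H2-Ab1* and *H2-Eb1* and their activator *Ciita* had at most 1 count in a library. Of its 10 genes 4 were tested, and the peptide editor genes *H2-DMa*, *H2-DMb1* and *H2-DMb2* were called higher with CYC065 in all 3 populations. In unsorted, 2N and 4N cells 4, 3 and 3 of the 4 were called higher, where 13.1%, 17.0% and 16.4% of all genes were. *H2-DMb1* had only 13 to 93 counts in a library and *H2-DMb2* 19 to 77. *H2-DMa* had 120 and 585 counts in vehicle and CYC065 unsorted cells, 92 and 614 in 2N, and 96 and 670 in 4N cells, with log2 fold changes of 2.41 (SE 0.12), 2.77 (SE 0.14) and 2.67 (SE 0.13). Its level in 4N and 2N cells differed by -0.10 after CYC065 and by -0.01 with vehicle. *Cd74*, the invariant chain, had 18 to 64 counts and log2 fold changes of 1.94 (SE 0.38, called) in unsorted, 0.72 (SE 0.39) in 2N and -0.61 (SE 0.33) in 4N cells. Its 4N to 2N changes differed between treatments by -1.33 (SE 0.51, called).

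Some fibroblast genes also moved with the treatment: *Pdgfra*, *Pdgfrb* and *Dcn* were called higher in all 3 populations. Of all genes, 13.1%, 17.0% and 16.4% were called higher in unsorted, 2N and 4N cells. *Col1a2* was called only in 2N cells (1.13), and *Col1a1* in no population (0.66, 0.35 and 0.40). The part of these fibroblast genes in the class I values was not tested.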
